A study of Homo sapiens with 40 samples.

Results

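The 9 genes described here encode enzymes that make, glucosylate or cleave ceramide: SPTLC1, SPTLC2, DEGS1, CERS2, CERS4, CERS5, CERS6, UGCG and ASAH1. They were taken by gene name from the deposited tables, and all 9 were found among 56568 gene names, on 152 annotated transcripts. Their level was followed in differentiated HepaRG cells, a human hepatic line derived from 1 tumour that forms hepatocyte-like and biliary-like cells side by side. All cells were held from day 8 to day 14 in test medium with 2% serum and 1% DMSO, and the RNA of 40 libraries was sequenced after depletion of ribosomal RNA. The 8 groups of 5 libraries were the solvent control, PCB 126 (a dioxin-like polychlorinated biphenyl and ligand of the aryl hydrocarbon receptor) at 100 pM, 10 nM and 1 µM, the herbicide glyphosate at 3 levels (10 µg/L, 1 mg/L, 0.1 g/L) and a level of 10 µg/L of the product Roundup, which contains it. Both the PCB 126 and the herbicide comparisons used the same 5 control libraries as reference. The labels do not say whether the 5 libraries of a group came from separate cultures, and the p-values measure the spread between these libraries, which may be technical.

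Ceramide is built at the endoplasmic reticulum. Serine palmitoyltransferase joins serine to palmitoyl-CoA, ceramide synthases add a fatty acid whose chain length differs between the family members, and dihydroceramide desaturase introduces the double bond of the sphingoid base. UGCG, the glucosylceramide synthase, then adds glucose on the Golgi membrane and so takes the first step to nearly all glycosphingolipids of the liver, while acid ceramidase, the product of ASAH1, splits ceramide in the lysosome into sphingosine and a fatty acid.

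The sequences ahead of the genes that bear the results are shown first, because PCB 126 acts through a receptor whose DNA element has the core GCGTG. They are the RefSeq promoter stretches (GRCh38.p14) that lie before the first base of the leading annotated transcript of UGCG (chr9:111896564-111896765, plus strand) and of SPTSSA, a small subunit of serine palmitoyltransferase (chr14:34462357-34462490, minus strand). Capitals mark GCGTG.
UGCG: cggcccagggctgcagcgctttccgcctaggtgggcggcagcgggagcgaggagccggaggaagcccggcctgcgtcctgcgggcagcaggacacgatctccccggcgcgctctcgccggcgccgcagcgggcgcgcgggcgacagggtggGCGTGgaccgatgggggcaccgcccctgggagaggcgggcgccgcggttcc
SPTSSA: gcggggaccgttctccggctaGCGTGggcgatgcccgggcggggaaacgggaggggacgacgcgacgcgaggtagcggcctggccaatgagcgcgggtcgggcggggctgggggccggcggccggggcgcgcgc
In the full window of 300 bases (250 before and 50 after the RefSeq start), searched on both strands, UGCG held 1 copy of GCGTG, whose first base lay 99 bases before the start, and SPTSSA held 2. Of all 35116 promoter entries, 36.5% held at least 1 copy, and 5 of the 6 members with an entry did (UGCG, CERS5, CERS6, SPTLC2 and DEGS1, but not SPTLC1). The longer form TNGCGTG, which contains the shorter one, stood in 5.51% of all entries, in none of these members and once in SPTSSA. The counts of members go by gene, and DEGS1 had 2 entries, whereas the shares go by entry. G and C made up 69.3 to 80.3% of the windows of the 5 members with GCGTG and 57.7% of that of SPTLC1. Entries of like base content were not counted apart. A match describes letters in a window and says nothing of binding.

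In the control cells the 9 genes covered a wide range of levels, given here as FPKM (fragments corrected for transcript length and sequencing depth, summed over the transcripts of a gene). CERS2, the synthase of very long chain ceramides and the main ceramide synthase of the liver, was highest in all 5 control libraries, with 173, 118, 170, 146 and 62.9 FPKM (mean 134 ± 45.4, SD, n = 5). ASAH1 followed with 22.3 ± 6.79, UGCG with 19.6 ± 6.31, CERS6, which uses palmitoyl-CoA, with 18.3 ± 4.71, and SPTLC1, a catalytic-core subunit of serine palmitoyltransferase, with 17.6 ± 5.60. The means of these 4 genes lay within 1 SD of each other, but this SD includes differences in scale between whole libraries. Within libraries, ASAH1 had rank 2 of the 9 members in 4 of the 5 control libraries and never ranked below 3. UGCG ranked from 2 to 5, CERS6 from 3 to 4 and SPTLC1 from 3 to 6, so the order of these genes was not resolved. DEGS1, the dihydroceramide desaturase, stood at 12.8 ± 3.68, and CERS4, CERS5 and SPTLC2 were lowest at 9.01 ± 3.46, 7.95 ± 2.40 and 5.48 ± 1.46. CERS2 made up 72.1 to 82.9% of the summed FPKM of the 6 ceramide synthase genes in control libraries and CERS6 made up 9.33 to 14.4%, while CERS1 and CERS3 did not exceed 0.219 and 0.0863 FPKM in any of the 40 libraries.

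Most members were measured through 1 transcript. ENST00000374279 (chromosome 9, 111896766 to 111935369, plus strand, 9 exons) gave 94.3% of the FPKM of UGCG on average over the 40 libraries, ENST00000305747 (chromosome 2, 168455862 to 168775137, 10 exons) 99.5% of that of CERS6, and ENST00000323699 (chromosome 1, 224183171 to 224193441, 3 exons) 97.8% of that of DEGS1. The leading transcripts of SPTLC1 and SPTLC2 held 89.7% and 86.2%, and that of CERS2 (ENST00000368954, chromosome 1, 150965173 to 150975004, minus strand, 11 exons) 79.02%. That of SPTLC2 fell to 7.53% in its lowest library. The leading transcripts of CERS4 and CERS5 held only 52.3% and 56.8% and were at 0% in their lowest library. Over the 40 libraries CERS4 had 4 different leaders and CERS5 had 3. ASAH1, on chromosome 8, was split most: its 69 annotated transcripts were led by 7 different ones in different libraries, the most abundant on average held 20.5%, and only the sum over the gene is therefore used for it.

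UGCG rose with PCB 126 and was the only member that passed the test in any comparison. From 19.6 FPKM in control cells its mean went to 30.4 ± 5.88 with 100 pM and 50.9 ± 18.1 with 10 nM, and it reached 63.8 ± 21.2 with 1 µM (SD, n = 5), a ratio of means of 3.26. The other 8 members had ratios between 0.566 and 1.38 at 1 µM, and none of them passed the test at any concentration.

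**Figure D1:**
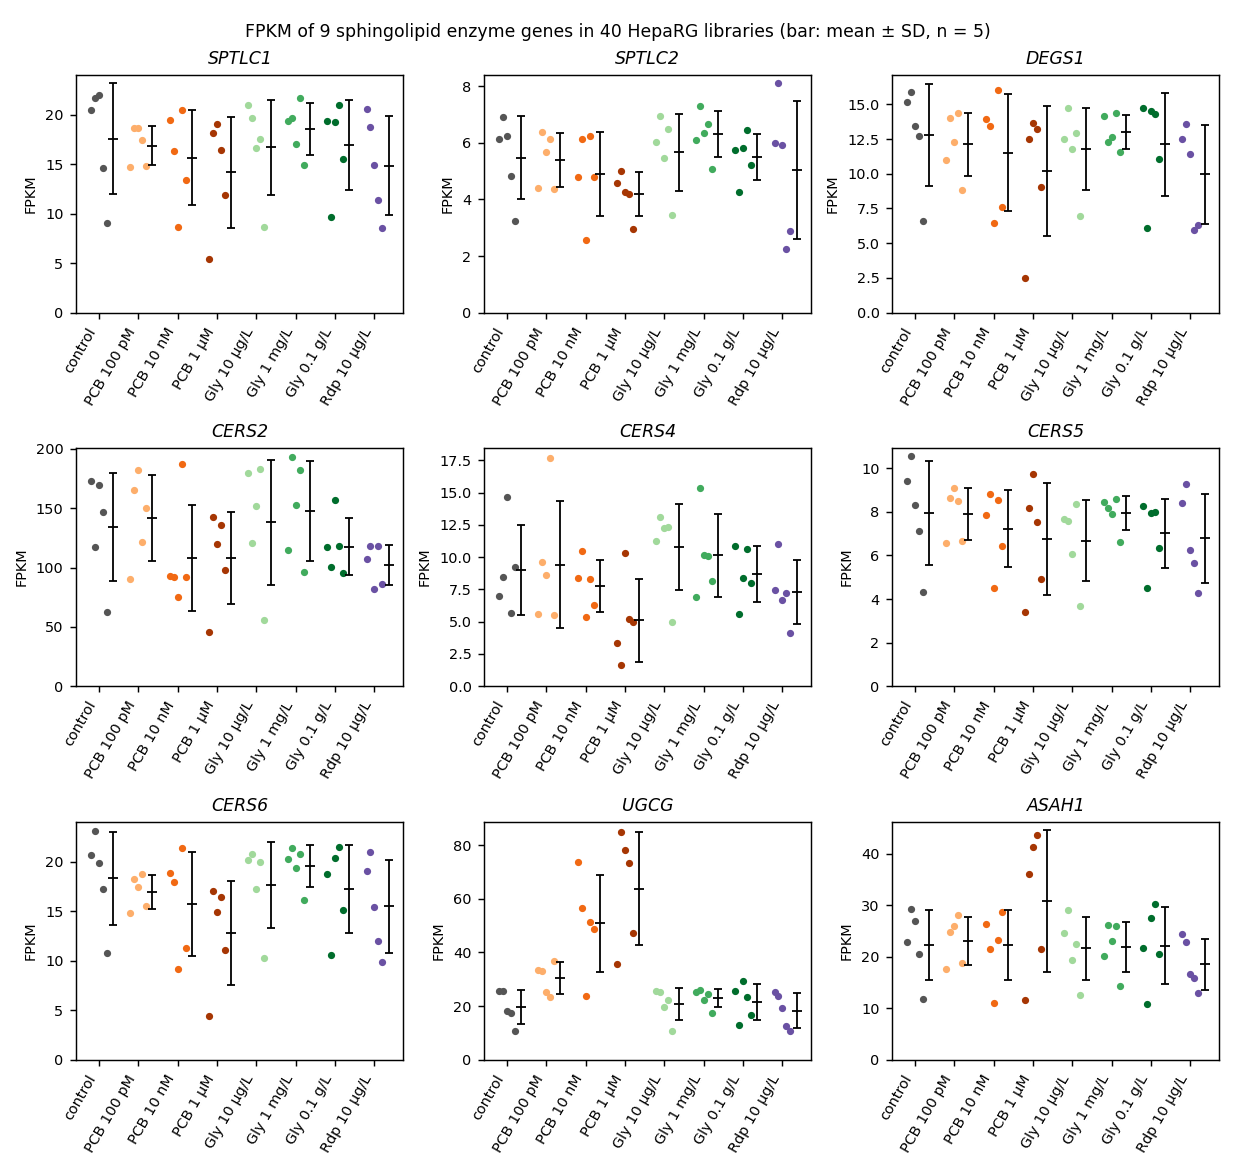
FPKM (vertical axis, from 0, a different scale in each panel) of the 9 genes in the 8 groups (horizontal axis; PCB, PCB 126; Gly, glyphosate; Rdp, Roundup). Each point is 1 library and the bars are the mean ± SD of 5 libraries; only in the UGCG panel does a treated group (1 µM PCB 126, 35.5 to 84.8 FPKM) lie wholly above the control libraries (10.8 to 25.8 FPKM).

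In the control libraries UGCG was measured at 25.7, 25.8, 18.3, 17.5 and 10.8 FPKM. At 100 pM the values were 33.5, 33.2, 25.1, 23.3 and 36.9, and at 10 nM they were 73.8, 56.7, 23.7, 51.5 and 48.6. At 1 µM they were 35.5, 84.8, 77.99, 73.3 and 47.4. The 1 µM libraries all lay above the highest control library, whereas 2 of the 5 libraries at 100 pM and 1 at 10 nM (replicate 3) fell within the control range. Groups that stand wholly above the control at 1 µM were seen for 0.707% of the genes tested.

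With limma on log2(FPKM + 1) over all 9755 genes of the PCB 126 table that passed the filter on variance, UGCG was higher at 1 µM by 1.64 (SE 0.31, 95% interval 1.01 to 2.27, adjusted p = 0.00301). At this concentration 1.87% of all genes tested passed the threshold of 0.05 and 0.646% did so upward, against 1 of the 9 members. Of the 182 calls 34.6% were upward, a share of 45.3% among 1125 calls after quantile normalization and of 54.4% among 498 with a library-size term. The F-test across the 4 groups gave an adjusted p of 0.0101 (1.39% of all genes passed), and the trend was 0.56 per concentration step (SE 0.09, adjusted p = 0.000538; 3.78% passed). At 10 nM the log2 difference was 1.31 (SE 0.31, 95% interval 0.68 to 1.94) with an adjusted p of 0.0877, when 0.205% of all genes passed. At 100 pM it was 0.65 (SE 0.31, 95% interval 0.02 to 1.28, adjusted p = 1), and 0 genes passed there, although 116 had an unadjusted p under 0.05. A bulk culture does not tell fewer cells of a type from less RNA per cell.

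Exact 2-sided permutation tests of UGCG alone (5 libraries against 5) gave p = 0.00794 for 1 µM against control, the smallest p this design allows, p = 0.0238 for 10 nM and p = 0.0476 for 100 pM, all unadjusted. Between the concentrations the exact tests gave p = 0.0714 for 10 nM against 100 pM, p = 0.0159 for 1 µM against 100 pM and p = 0.389 for 1 µM against 10 nM. After scaling each library by its 75th percentile (described next) these were 0.0159, 0.00794 and 0.0714. The level at 1 µM was thus not resolved from that at 10 nM on either scale, whereas that at 10 nM was resolved from that at 100 pM only on the scaled values.

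The FPKM were deposited without scaling between libraries, and the library scale differed: the 75th percentile of the genes above 0 ran from 2.47 to 5.05 FPKM. The lowest of all 40 was 10 nM replicate 3, the library in which UGCG was low. After division by the 75th percentile, UGCG was 14.0 to 21.4 in the control group, 19.3 to 45.2 at 100 pM, 39.2 to 65.0 at 10 nM and 49.6 to 79.9 at 1 µM. On this scale both higher concentrations lay wholly above the control libraries, and at 10 nM the adjusted p in limma fell to 0.00138 with a log2 difference of 1.45. Without 10 nM replicate 3 and with no scaling, the difference was 1.55 (adjusted p = 0.00838). The call at 1 µM was made under all alternatives, with log2 differences from 1.46 to 1.88, whereas that at 10 nM was made under some of them and not under others, with and without scaling.

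**Figure D2:**
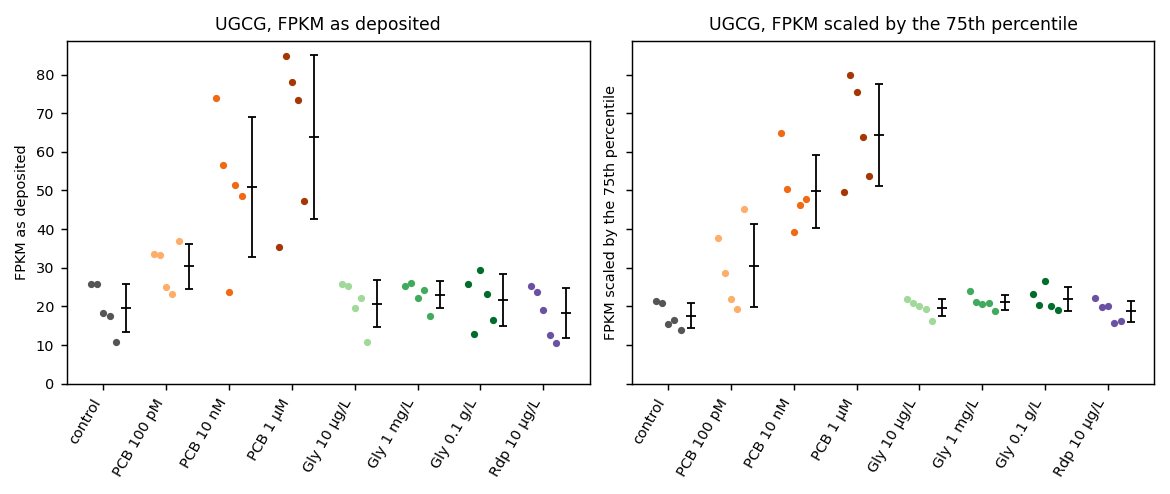
UGCG in the 8 groups as deposited (left, FPKM) and after scaling each library by its 75th percentile (right, scaled FPKM); points are libraries and bars the mean ± SD of 5. The scaled 10 nM libraries lie between 39.2 and 65.0, above the 14.0 to 21.4 of the control libraries.

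The label of the PCB 126 groups was checked on CYP1A1, a target of the aryl hydrocarbon receptor, which was at 0 to 7.69 FPKM in control libraries, from 1.09 up to 319 at 100 pM, 92.1 to 377 at 10 nM and 85.2 to 389 at 1 µM. All libraries labelled 10 nM and 1 µM thus lay above the control libraries. At 100 pM replicates 3 and 4 (3.21 and 1.09 FPKM) lay within the control range. Control replicates 1 and 2 (7.69 and 3.76 FPKM) lay above them, and control replicates 3 to 5 (0.175, 0 and 0) below. CYP1A1 thus neither bears out nor contradicts their label. These were the 2 libraries of that group whose UGCG fell within the control range. At 100 pM the highest CYP1A1 (319 FPKM) was in replicate 5, which also had the highest UGCG of that group (36.9 FPKM), and the lowest CYP1A1 (1.09) was in replicate 4, which had the lowest UGCG (23.3). At 10 nM the highest and the lowest value of both genes also shared a library (replicates 1 and 3). At 1 µM the lowest did (replicate 1), but the highest CYP1A1 was in replicate 4 and the highest UGCG in replicate 2. Both genes share the scale of their library, and the match was not tested.

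The leading transcript of UGCG, ENST00000374279, was the only member transcript to pass when single transcripts of the PCB 126 table were tested (20 member transcripts among 21181). Its log2 difference at 1 µM was 1.64 (SE 0.34, adjusted p = 0.0269, with 0.552% of transcripts passing), and its trend was 0.56 per step (SE 0.10, adjusted p = 0.00624, with 0.850% passing). The F-test of this transcript across the 4 groups did not pass (adjusted p = 0.0863), unlike that of the gene.

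Serine palmitoyltransferase, the entry of the pathway, showed no difference beyond the replicate spread in its large subunits. SPTLC1 was at 20.5, 21.7, 22.01, 14.6 and 9.11 FPKM in the control group and at 5.47, 18.1, 19.1, 16.4 and 11.9 at 1 µM (log2 difference −0.33, SE 0.31, adjusted p = 0.618). SPTLC2 was at 6.15, 6.92, 6.24, 4.82 and 3.25 and at 4.58, 5.00, 4.25, 4.19 and 2.96 (−0.30, SE 0.24, adjusted p = 0.572). The groups of both genes overlapped, and the lowest control value of each was in replicate 5. The ratio of SPTLC1 to SPTLC2 had a median of 3.14 in control libraries and of 3.92 at 1 µM, with a low of 1.19 in replicate 1 at 1 µM.

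The small subunit SPTSSA, which activates the enzyme and is no member, moved against UGCG. It was at 29.4, 27.4, 16.9, 22.9 and 15.7 FPKM in the control group, 22.3, 24.4, 20.9, 28.2 and 17.0 at 100 pM, 13.6, 13.3, 8.69, 25.4 and 5.98 at 10 nM, and 2.59, 9.03, 6.03, 11.3 and 6.89 at 1 µM. All 1 µM libraries lay below all control libraries, as for 1.64% of the genes tested. The log2 difference at 1 µM was −1.60 (SE 0.33, 95% interval −2.28 to −0.92, adjusted p = 0.00676; 1.22% of genes passed downward), with a trend of −0.56 per step (adjusted p = 0.00217). Its paralog SPTSSB, which shifts the chain length of the sphingoid base, fell by 0.43 per step (SE 0.11, adjusted p = 0.0267), and at 1 µM the difference was −1.28 (SE 0.36, adjusted p = 0.0693; 0.0297 with 75th-percentile scaling). For SPTSSB, 75.2% of the FPKM came from a single-exon transcript of 231 bases, and the trend lost its call when 1 of 4 libraries was left out (control replicates 2 and 4, 1 µM replicates 1 and 5; adjusted p 0.0647 to 0.0868), without the fifth run of library numbers (0.0616), over every gene above 0 (0.101) and for its most abundant transcript (0.0685).

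The ceramide synthases, whose choice of acyl chain sets the ceramide species, did not pass the test at 1 µM. CERS4, which prefers stearoyl-CoA and somewhat longer chains, was at 6.95, 8.47, 14.7, 5.68 and 9.24 FPKM in the control group and 3.33, 1.68, 10.3, 5.23 and 4.97 at 1 µM (log2 difference −0.81, SE 0.34, adjusted p = 0.276). CERS6 was at 20.6, 23.1, 19.9, 17.3 and 10.8 against 4.41, 17.0, 14.9, 16.4 and 11.1 (−0.57, SE 0.30, adjusted p = 0.422). For CERS4 only the highest 1 µM library lay within the control range, whereas for CERS6 all but replicate 1 (4.41) did. CERS2 went from 133.9 ± 45.4 to 108.3 ± 38.87 FPKM (−0.32, SE 0.33), and CERS5, which like CERS6 prefers palmitoyl-CoA, from 7.95 ± 2.40 to 6.77 ± 2.56 (−0.23, SE 0.27). The median log2 difference of all 9755 genes at 1 µM was −0.26, so CERS2 and CERS5 lay near the middle of all genes, and the sign for CERS5 turned under quantile normalization (0.0095) and with a library-size term (0.025). The share of CERS2 in the summed ceramide synthase FPKM was 77.2 to 84.1% at 1 µM and overlapped the control range.

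DEGS1 was at 15.2, 15.9, 13.4, 12.8 and 6.58 FPKM in the control group and at 2.50, 12.5, 13.7, 13.2 and 9.01 at 1 µM (−0.41, SE 0.34, adjusted p = 0.587). Apart from the low replicate 1, whose 75th percentile of 2.93 FPKM was also low, the 1 µM libraries lay within the range of the control libraries.

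ASAH1 was the only member besides UGCG with a mean above the control at 1 µM. Its values were 22.8, 29.4, 27.0, 20.6 and 11.8 FPKM in the control group and 11.7, 36.04, 41.3, 43.6 and 21.6 at 1 µM. Of the 5 treated libraries 3 exceeded every control library, and 1 lay below all of them. The log2 difference was 0.37 (SE 0.33, 95% interval −0.31 to 1.04) and did not pass (adjusted p = 0.608). It passed with a library-size term (0.68, adjusted p = 0.0335) and with array weights (0.61, adjusted p = 0.0267), whose estimation stopped before convergence.

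At the lower concentrations the other 8 members stayed close to the control. Their log2 differences lay between −0.07 and 0.13 at 100 pM, when the median of all genes was 0.07, and between −0.30 and −0.01 at 10 nM, when it was −0.21. At 10 nM CERS2 was at 107.9 ± 44.9 FPKM, CERS4 at 7.77 ± 2.00, CERS5 at 7.23 ± 1.78 and CERS6 at 15.7 ± 5.20. SPTLC1 was at 15.7 ± 4.81, SPTLC2 at 4.91 ± 1.48, DEGS1 at 11.5 ± 4.21 and ASAH1 at 22.2 ± 6.83. All 8 overlapped the control range at each PCB 126 concentration, and their adjusted p was at least 0.865 at 10 nM and 0.276 at 1 µM.

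**Figure D3:**
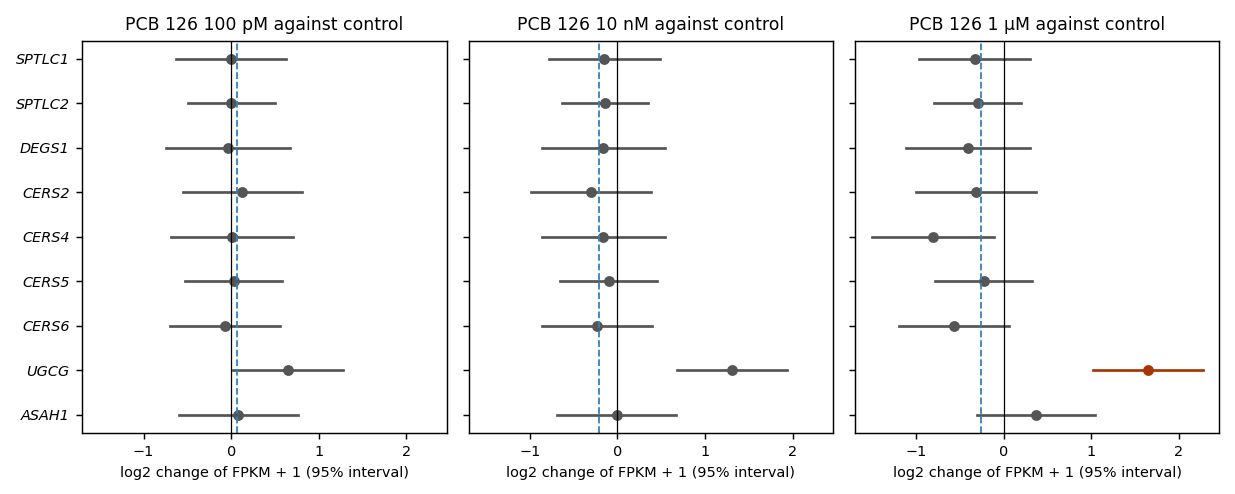
Difference to the control group on the log2(FPKM + 1) scale (horizontal axis, the same in each panel) of the 9 members at 3 concentrations of PCB 126, with 95% intervals from limma (n = 5 per group). The dashed blue line is the median of all 9755 genes and brown marks an adjusted p under 0.05, which is reached only by UGCG at 1 µM (1.64).

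A ratio of 2 genes of the same library does not depend on the library scale. The following ratios were chosen after the values were seen and are given with no test. UGCG over CERS6 was 0.920 to 1.24 in the control group, 1.24 to 2.38 at 100 pM, 2.41 to 4.30 at 10 nM and 4.27 to 8.05 at 1 µM. In this ratio 1 of the 10 nM libraries reached the range of the 1 µM group, and the other neighbouring groups did not overlap. The highest control value (1.2437) and the lowest at 100 pM (1.2449) were nearly equal, however. A library with 0.1 g/L glyphosate reached 1.444, above the 100 pM values of 1.245 and 1.435. The mean of CERS6 itself was lower at 1 µM than in the control group (above). Over the other members the order was less clear. UGCG over ASAH1 was 0.676 to 1.12, 0.829 to 1.97, 1.69 to 2.79 and 1.68 to 3.04 in the same order of groups, with a mean of 2.29 at 10 nM and 2.23 at 1 µM. UGCG over CERS2 was 0.108 to 0.219, 0.138 to 0.372, 0.275 to 0.792 and 0.485 to 0.771, with overlap between each pair of neighbouring groups. Of the summed FPKM of UGCG and UGT8, the galactosylceramide synthase that uses the same substrate, UGCG held 79.9 to 83.0% in the control group, 83.1 to 92.7% at 100 pM, 91.7 to 94.8% at 10 nM and 95.4 to 96.0% at 1 µM. UGT8 itself went from 4.40 ± 1.43 to 2.84 ± 0.905 FPKM at 1 µM (log2 difference −0.48, SE 0.25, adjusted p = 0.414).

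**Figure D4:**
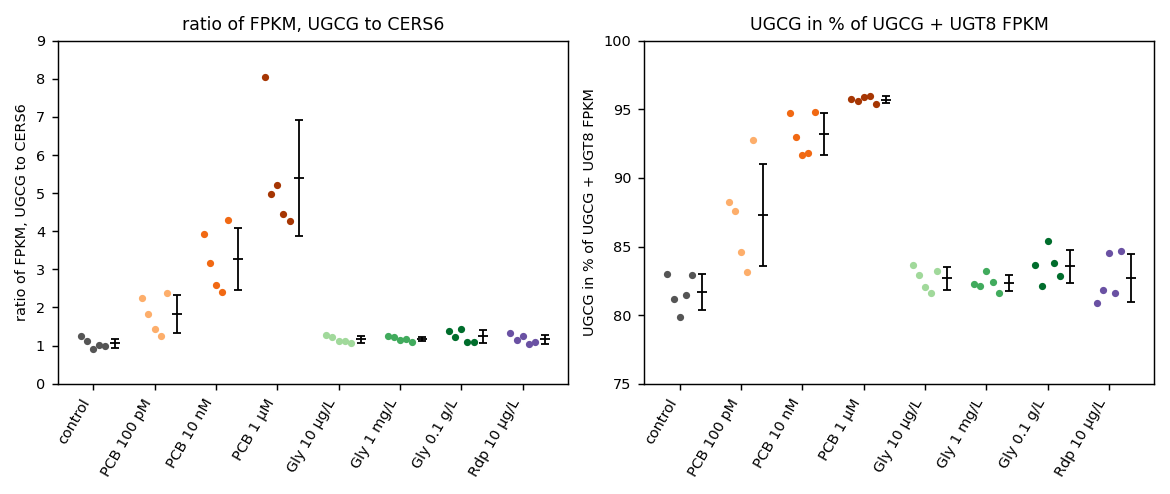
Ratio of UGCG to CERS6 FPKM (left) and UGCG in percent of the summed UGCG and UGT8 FPKM (right) in the 8 groups; points are libraries and bars the mean ± SD of 5, and the percent axis does not start at 0. The control libraries range from 0.920 to 1.24 (left) and 79.9 to 83.0% (right), the 1 µM libraries from 4.27 to 8.05 and 95.4 to 96.0%, and the herbicide groups stay between 1.05 and 1.44 and between 80.9 and 85.4%; the ratios of UGCG to ASAH1 and to CERS2, which overlap between neighbouring PCB 126 groups, are not drawn.

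By rank, UGCG was the third of the 9 members in the control group and second at each PCB 126 concentration, but also second with 1 mg/L glyphosate and the third in the other herbicide groups. It was the second gene in 1 of the 5 control libraries, 3 at 100 pM, 5 at 10 nM and 5 at 1 µM, and in 2 or 3 of the 5 libraries of each herbicide group. The count at 100 pM was that of 2 of the herbicide groups.

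Around the members stood 59 other sphingolipid genes in 6 lists. Of these, 40 passed the variance filter of the PCB 126 table and were tested. At 1 µM only SPTSSA passed among them, when 1.87% of all genes tested did. A count of 0 in a short list is thus near the share over all genes. Of the other subunits and regulators of de novo synthesis, 1 of 7 passed (SPTSSA, downward), and the list had a median log2 difference of −0.39 against −0.26 for all genes. In glycosphingolipid synthesis and transport 0 of 7 passed (median −0.38). B4GALT5, which makes lactosylceramide from the product of UGCG, was at 13.2 ± 3.69 FPKM in the control group and 9.18 ± 2.54 at 1 µM, and the transfer protein GLTP at 12.01 ± 3.22 and 9.23 ± 3.35. ST3GAL5, the GM3 synthase, named after its values were seen, was at 3.04 ± 1.56 and 5.91 ± 2.74 (log2 difference 0.79, SE 0.34, adjusted p = 0.283). In lysosomal breakdown 0 of 12 passed (median −0.24), with PSAP, the saposin precursor, at 362 ± 90.5 and 305 ± 78 FPKM and SCARB2, a lysosomal membrane protein, at 71.7 ± 17.4 and 57.3 ± 22.1.

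The sphingomyelin genes gave 0 of 5 past the threshold (median 0.06), with SMPD1, the acid sphingomyelinase, at 25.9 ± 6.50 FPKM in the control group and 27.6 ± 4.80 at 1 µM and SMPD4 at 11.1 ± 2.67 and 9.03 ± 2.71. Ceramidases and the genes of sphingosine 1-phosphate and ceramide 1-phosphate gave 0 of 3 (median −0.06), and the other genes of this list of 10 were not tested. CERK, the ceramide kinase, was at 12.4 ± 3.22 and 13.3 ± 3.07 and SGPL1, the sphingosine 1-phosphate lyase, at 12.1 ± 3.05 and 11.6 ± 3.16. The elongation of very long chain fatty acids gave 0 of 6 with the lowest median of the lists (−0.66). TECR, which catalyses the last reduction of the elongation cycle, was at 40.7 ± 9.52 and 28.3 ± 13.5, and the elongase ELOVL5 at 34.2 ± 9.16 and 22.7 ± 12.4.

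**Figure D5:**
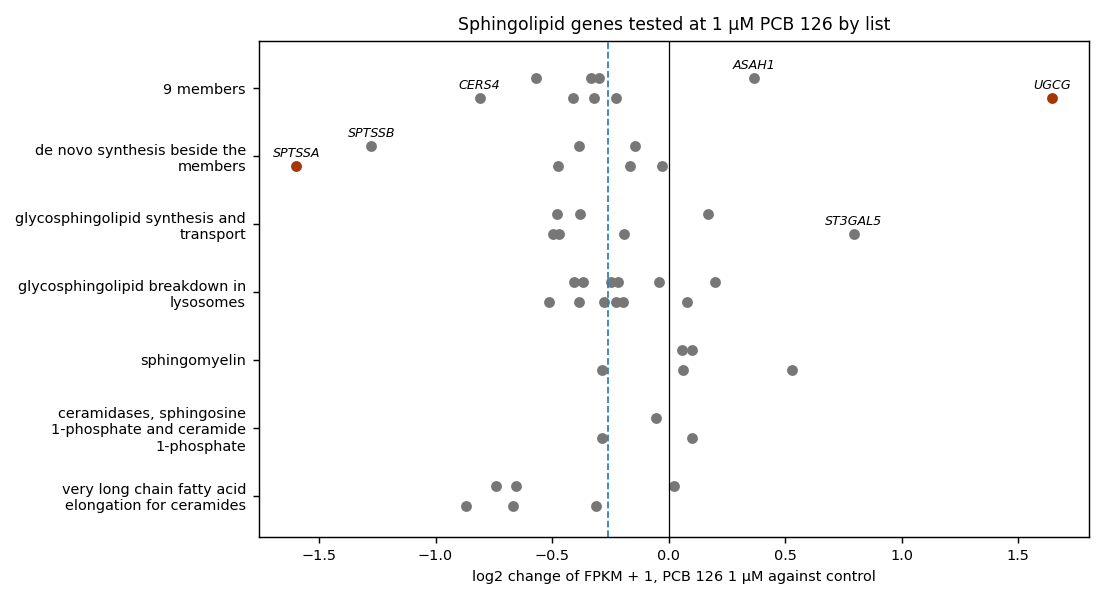
Difference between 1 µM PCB 126 and control on the log2(FPKM + 1) scale (horizontal axis) for each gene tested, by list (vertical axis; points of a list are offset for legibility). Brown marks an adjusted p under 0.05, the dashed blue line is the median of all genes (−0.26), and UGCG (1.64) and SPTSSA (−1.60) stand at opposite ends.

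The genes whose level over the 40 libraries was most like that of UGCG were PARD6B, a cell polarity protein (Pearson r = 0.976), CYB561A3 (0.972), TIPARP, a mono-ADP-ribosyltransferase and target of the aryl hydrocarbon receptor (0.970), SCG5 (0.965) and FHDC1 (0.965), out of 12648 genes with a mean of at least 1 FPKM. The measure was log2(FPKM + 1) after scaling by the 75th percentile, and the points share the 8 groups, so r includes the response to PCB 126. Within groups these r were 0.712 to 0.898. Between the control group and 1 µM, PARD6B went from 11.9 ± 3.93 to 31.1 ± 9.33 FPKM, CYB561A3 from 13.5 ± 3.95 to 95.9 ± 30.0, TIPARP from 4.58 ± 1.52 to 53.3 ± 21.9, SCG5 from 7.83 ± 2.29 to 49.0 ± 13.0 and FHDC1 from 0.794 ± 0.203 to 1.94 ± 0.597.

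The same measure was taken between the members. The 8 pairs of UGCG with another member had r between −0.53 and 0.57 on the scaled values, and the 28 pairs among the other members between −0.34 and 0.87. Without scaling the latter ran from 0.30 to 0.96, since all genes of a library share its scale. The closest genes were EIF2S3 for CERS6 (0.969), ARCN1 for SPTLC1 (0.918), EPS15 for DEGS1 (0.918), NDRG3 for CERS5 (0.833), PCSK6 for ASAH1 (0.741), SNX1 for SPTLC2 (0.726), MFSD6 for CERS2 (0.647) and ABCC4 for CERS4 (0.640). Each is the highest r out of 12648 genes, so by the search it cannot be lower than the r to another member.

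Markers of the cell types in the culture differed between these groups as well, and the sums of hepatocyte and of biliary markers at 1 µM lay below those of all control libraries. All marker values here are unscaled FPKM. The median log2 difference of all 9755 genes at 1 µM was −0.26, so most genes tested also lay below the control. The summed FPKM of 10 hepatocyte markers ran from 14621 to 21311 in the control group and from 5719 to 14537 at 1 µM, so the ranges nearly met. Most of this sum was ALB and SERPINA1, and 8 of the 10 means were below the control, while HNF4A was at 19.5 ± 3.95 and 27.0 ± 9.77 and CYP3A4 at 3.08 ± 2.27 and 4.22 ± 1.93. The sum of 6 biliary or progenitor markers ran from 224 to 452 and from 122 to 215, with 6 of 6 means below the control, of which EPCAM, KRT7 and CFTR were at or near 0. For 6 mesenchymal markers the sums were 37.9 to 82.4 and 48.2 to 187, with COL1A2 and THY1 at or near 0. Of these 6 means 3 were below the control. LUM, which made up most of the sum, was at 50.2 ± 14.0 and 114.8 ± 57.9 and COL3A1 at 12.5 ± 3.63 and 0.576 ± 0.274. The 3 endothelial markers summed to at most 0.539 FPKM in the control and PCB 126 groups, and the 4 macrophage markers ran from 2.2 to 7.2 in the control group and from 2.5 to 4.5 at 1 µM, with CD163 and PTPRC near 0. The part of these changes in the rise of UGCG and the fall of SPTSSA was not tested.

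None of the 9 members passed the test after glyphosate or Roundup, and 0 of all 9533 genes tested in that table did (0% in each comparison, with 84 to 165 genes at an unadjusted p under 0.05). UGCG was at 25.8, 25.3, 19.5, 22.2 and 10.8 FPKM with 10 µg/L glyphosate, 25.3, 26.02, 22.2, 24.4 and 17.5 with 1 mg/L, and 25.8, 12.9, 29.4, 23.3 and 16.5 with 0.1 g/L. With 10 µg/L Roundup it was at 25.3, 23.8, 19.2, 12.6 and 10.7. All 4 groups overlapped the control range of 10.8 to 25.8.

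The log2 differences of UGCG to the control were 0.08 (95% interval −0.50 to 0.66), 0.27 (−0.31 to 0.85) and 0.14 (−0.44 to 0.72) for rising glyphosate and −0.10 (−0.68 to 0.47) for Roundup. For Roundup against glyphosate at the matched 10 µg/L, UGCG differed by −0.19 (−0.77 to 0.39, adjusted p = 0.974). True differences of up to about the outer bounds of these intervals are not excluded with 5 libraries per group. The other 8 members lay between −0.21 and 0.23 at 10 µg/L glyphosate, 0.00 and 0.20 at 1 mg/L, −0.14 and 0.03 at 0.1 g/L, and −0.35 and −0.17 with Roundup, when the median of all genes was −0.04, 0.14, −0.01 and −0.18. CERS2, for example, went from 133.9 ± 45.4 FPKM to 138 ± 52.6, 148 ± 41.9 and 117.6 ± 24 with rising glyphosate and to 102 ± 17.1 with Roundup, and CERS6 from 18.3 ± 4.71 to 17.7 ± 4.35, 19.6 ± 2.08 and 17.3 ± 4.44 and to 15.5 ± 4.65. The most negative Roundup to glyphosate difference was that of CERS4 (−0.49, SE 0.28, adjusted p = 0.974). Among the 41 other sphingolipid genes tested in this table, 0 passed in any comparison. SPTSSA stood between −0.18 and 0.31 against the control and at −0.30 for Roundup against glyphosate.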

How the data were processed

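Total RNA of 40 HepaRG libraries was depleted of ribosomal RNA and sequenced from directional libraries. The authors mapped the reads on GRCh38 by HISAT2, used StringTie with Ensembl release 89 to assemble and quantify, and deposited FPKM for 234960 transcripts in 2 tables without scaling between libraries. Columns with values below 0 were handled as a score among the deposited columns, and their 4 and 6 negative values were set to 0. FPKM carry no read counts, so depth is not known from them and the number of libraries (5 per group) limits the precision.

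FPKM were summed per gene name. Genes with a variance of FPKM above 1 were tested on log2(FPKM + 1) with limma 3.58.1 in R 4.3.3, each table in 1 fit over all its groups, with Benjamini-Hochberg adjustment over all genes (9755 and 9533) and a threshold of 0.05. A fold change on this scale understates that of low genes. Single values were compared by exact permutation. The fit was also run on simulated data with residuals shuffled within each gene. That removes effects shared by the genes of a library, so the simulation cannot tell how the fit handles them. Other steps used Python 3.11.15, and sequences came from RefSeq (GRCh38.p14).

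Groups came from the treatment labels. The labels state no replicate numbers, and replicates were numbered in accession order as identifiers only. Named were the 9 members, their leading transcripts and those past the threshold, list genes past the threshold or, failing that, the 2 with the highest mean, the genes most like each member, and CYP1A1. The members and lists were chosen with earlier results of these data known. Alternatives were a pseudocount of 0.1, 2 other filters, 75th-percentile scaling, quantile normalization, a library-size term, sums per assembled locus, the most abundant transcript, all 40 libraries or only the groups compared, array weights, a replicate block and leaving out each library.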

Additional observations from a re-analysis of the deposited data

Results flagged for a closer look

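In 88 groups of 5 values (9 members, SPTSSA and SPTSSB in 8 groups), 4 held a library whose gap to the nearest other one exceeded 0.71 of the range of the group, and chance gives about 1 in 20 such groups. CERS2 at 10 nM PCB 126 was at 187 FPKM in replicate 4 and at 75.4 to 93.2 in the other 4 libraries. CERS4 with 10 µg/L glyphosate was at 4.94 FPKM in replicate 5 and at 11.3 to 13.1 in the others. SPTSSB with 1 mg/L glyphosate was at 5.85 FPKM in replicate 1 against 12.4 to 14.6, and with Roundup at 19.97 in replicate 2 against 6.20 to 8.58.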

How the results depend on the processing

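UGCG at 1 µM PCB 126 and its trend passed under each of the 25 and 33 alternatives run (adjusted p at most 0.0215 and 0.00491). Its difference at 10 nM also passed with 75th-percentile scaling (1.45), quantile normalization (1.52), a library-size term (1.497), sums per assembled locus (1.31), array weights (1.47), all 40 libraries in the fit (1.31) and without the 8 libraries whose 75th percentile was under 3.5 FPKM (1.37), each with 1 member called in place of 0. Leaving out 1 library gave 1.12 to 1.55, with 0 or 1 member called, and the call came without 10 nM replicate 3. The F-test of UGCG missed the threshold over every gene above 0 (adjusted p = 0.0765, 0 members; 43478 genes tested) and without the fifth run of library numbers, 73 to 80 (0.0527, 0 members; 4 libraries per group). ASAH1 made a second member called, so that 2 passed, at 1 µM with a library-size term and with array weights, in the F-test with array weights, and in the trend with quantile normalization and a library-size term. Leaving out the 8 libraries or the fifth run, and the block with scaling, were chosen after seeing the data.

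Array weights, whose estimation stopped before convergence in both tables, called 5 members for Roundup, when 36.4% of the 9533 genes passed. For Roundup against glyphosate these weights called 6 members, when 4448 of the 9533 genes passed. In the herbicide F-test they called 6 members, when 5527 of the 9533 genes passed. The cause was not tested. CERS5 at 1 µM turned to 0.0095 (quantile) and 0.025 (library-size term). UGCG after Roundup turned to 0.094 with 75th-percentile scaling, 0.091 with quantiles, 0.084 with a library-size term and 0.072 without the 8 libraries, and from −0.29 to 0.059 when 1 library was left out; for glyphosate the latter range was −0.10 to 0.29 at 10 µg/L and −0.049 to 0.30 at 0.1 g/L. None of these CERS5 and UGCG values passed. Of the 5 genes most like UGCG, 2 remained among the first 5 without scaling and 2 within groups. Over all genes, the alternatives called 14 to 239 at 10 nM, 118 to 1125 at 1 µM, 88 to 915 in the F-test and 223 to 1275 in the trend (at 1 µM 118 without control replicate 4, 365 without control replicate 5 and 1125 with quantile normalization).

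Library numbers fall into 5 runs with 1 library of each group. Of the 30 pairs of PCB 126 table libraries within a run, 6 had deviations correlated over 0.1 (median 0.0685). Yet 14 of the 20 libraries were closest to their own run. In the herbicide table these were 18 of 50 pairs and 19 of 25 libraries. Libraries of a run were thus alike to a degree, which the main tests leave out. The labels do not say what a run is, so the numbers were not taken as a pairing. With the replicate block UGCG differed by 1.31 at 10 nM (adjusted p = 0.0679; 37 genes called) and 1.64 at 1 µM (0.00304; 357 genes), with the block and 75th-percentile scaling by 1.45 (0.0024) at 10 nM, and for Roundup by 0.094. Within runs UGCG exceeded the control library in 5 of 5 runs at each PCB 126 concentration, by 1.38 to 4.41 times at 1 µM. It also did so in 4 of 5 runs at each glyphosate level and in 1 of 5 with Roundup. The median ratio was 1.33 at 100 pM and also 1.33 with 0.1 g/L glyphosate. How many of all genes reached 5 of 5 was not counted.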

Other observations

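A minor transcript of CERS2, ENST00000368949 (chromosome 1, 150966564 to 150971935, 10 exons, 1002 bases), was chosen after its values were seen. It was at 0.05 to 0.25 FPKM in the 5 control libraries and at 5.03 to 10.5 in the 5 libraries with 10 µg/L glyphosate, while the other treated groups each held libraries under 0.26 FPKM beside libraries above 5. Its log2 difference at 10 µg/L glyphosate was 2.92 (SE 0.65), which did not pass among the 20601 transcripts tested (adjusted p = 0.547), and CERS2 as a whole differed little there (133.9 ± 45.4 against 138 ± 52.6 FPKM).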
